A study of Mus musculus with 12 samples.

Results

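RING finger, ZNRF, TRIM and MARCH proteins are mostly ubiquitin ligases, and their transcripts were followed in sorted mouse spermatids. Members were chosen by name: every transcript contig of the deposited count matrix whose gene symbol begins with Rnf, Znrf, Trim or Marchf was taken, which gave 137 contigs of 74 genes out of 12114 contigs in all. A contig here is 1 annotated transcript, and 37 of the 74 genes had more than 1, with 5 as the most for a gene. The RNF group held 90 contigs of 45 genes, the ZNRF group 4 of 3, the TRIM group 32 of 20 and the MARCH group 11 of 6. The 12 libraries were direct RNA nanopore libraries of poly(A) RNA from adult male mice, 3 for each of 4 groups: RS (round spermatids) and ES (elongated spermatids), from Tent5c wt/wt mice and from Tent5c dcat/dcat mice of a C57BL/6 line, whose TENT5C, a poly(A) polymerase, is catalytically inactive. The wt/wt mice were littermates of the mutants, bred from heterozygous parents, no treatment is named, and all 4 groups came from testis suspensions stained with Hoechst and propidium iodide and sorted on DNA content, red fluorescence and scatter. A library held mRNA pooled from the spermatids of 3 mice, so no value belongs to a single animal, and the 3 libraries of a genotype and stage drew on 9 mice. RS and ES were sorted from the same mice, so the stages of a genotype share animals, but which RS and ES libraries hold the same mice is not stated in the sources used here. The design asks how transcripts change from RS to ES in each genotype, and whether loss of TENT5C catalysis changes their levels.

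A ubiquitin ligase brings a conjugating enzyme loaded with ubiquitin to a chosen protein and so sets which protein is marked. In RING ligases a zinc-binding domain holds the conjugating enzyme, TRIM proteins carry the RING beside B-box and coiled-coil segments, and most MARCH proteins are membrane proteins with a RING variant called RING-CH. Spermatids stop transcription while they elongate, replace most histones and discard much of their cytoplasm, so later protein turnover relies on mRNAs made earlier, and several of these ligases are best known from the testis.

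Library totals ran from 337287 counts (wt/wt ES replicate 3) to 1359427 (wt/wt RS replicate 3), and members drew 41 to 8925 counts over the 12 libraries, with a median of 268. Levels below are CPM (a contig's counts scaled to a common library size) after trimmed-mean (TMM) scaling in edgeR, and 3 counts, the limit that a count of 0 allows, came to between 1.77 and 10.6 CPM depending on the library, for counting error only. TMM sets the bulk of contigs near 0, whereas scaling by total counts moved the median stage change of all contigs from -0.24 to -0.96 on the log2 scale in wt/wt and from -0.18 to -0.85 in dcat/dcat, so every stage change below is relative to the other transcripts. In bulk libraries, fewer cells of a type and less RNA per cell cannot be told apart. The Tent5c contig had 229 to 660 counts per library in all 4 groups, which does not check the genotype label, since dcat leaves the transcript in place. Round spermatid markers summed to 3249 to 3375 CPM in wt/wt RS and 1939 to 2009 in wt/wt ES, and elongated spermatid markers to 20722 to 43769 and 220834 to 288883. Replicate 1 libraries stood apart in how reads were split among the contigs of a gene: the share of the main contig was highest in replicate 1 in all 4 groups for 13 of the 24 member genes that could be compared and for 522 of 1333 genes overall (39.2%).

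Between RS and ES, more member contigs rose than fell, in both genotypes. In wt/wt mice, 51 of the 133 member contigs with enough counts to test were higher in ES, 38.3%, where 23.8% of all 11831 contigs tested were higher, and 17 were lower, 12.8%, where 16.5% of all were lower. In dcat/dcat mice, 50 members were higher (37.6%, background 24.0%) and 18 were lower (13.5%, background 16.9%). The median member change was 0.11 in wt/wt against -0.24 over all contigs, and 0.15 in dcat/dcat against -0.18. These calls, and every q given with a stage change, are from edgeR's quasi-likelihood test with Benjamini-Hochberg adjustment over all contigs at q of 0.05 or less, and every change is a log2 ratio of ES to RS. The 4 contigs not tested were the single contigs of Rnf8 and Rnf144b and both of Rnf6. Rnf8, a ligase of the DNA damage response, had only 2 to 16 counts in a library. On total counts the member medians were -0.62 and -0.51 and the split was 34 higher and 50 lower in wt/wt and 32 higher and 49 lower in dcat/dcat, so that more members fell than rose. Of all contigs, 16.5% were then higher and 45.7% lower in wt/wt, against 25.6% and 37.6% of members, and 16.6% and 42.2% in dcat/dcat, against 24.1% and 36.8%. With the replicate number as a block, wt/wt had 54 members higher and 27 lower (background 27.2% and 24.4%), and dcat/dcat had 57 and 28 (background 28.0% and 23.9%). Without wt/wt ES replicate 1 or replicate 2, the lower calls in wt/wt were 11 and 10, while those over all contigs fell to 10.3% and 8.66%.

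Of the members, 47 contigs were higher in both genotypes and 14 lower in both, none was called in opposite directions, and 58 were called in neither. Over all 11831 contigs tested, 2568 were higher in both genotypes and 1347 lower in both. The remaining 14 members were called in 1 genotype: 4 higher and 3 lower in wt/wt, and 3 higher and 4 lower in dcat/dcat. By gene, 28 of 71 had a higher contig and 14 a lower one in wt/wt, with 28 and 15 in dcat/dcat. The share of all genes with such a contig was not counted, so these numbers only describe the members. Counts summed by gene are set against all genes further below. All contigs were higher for 11 genes with several contigs in wt/wt, among them Rnf4, Rnf24, Rnf44, Rnf133, Rnf138, Rnf139, Rnf151, Rnf181, Trim17 and Trim36. How many of all genes with several contigs did so was not counted. The wt/wt call of Rnf4 ENSMUST00000030992 was lost on total counts and without RS replicate 1 or 2 or ES replicate 2 or 3. That of Rnf151 ENSMUST00000234399 was lost on total counts and without RS replicate 1 or 3 or ES replicate 2. Both Rnf181 contigs lost it on total counts, 1 also without ES replicate 1 and the other without RS replicate 1 or ES replicate 2. No member gene with several contigs had all of them lower, and no member gene had contigs called in opposite directions. Neither was counted over all genes.

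**Figure D1:**
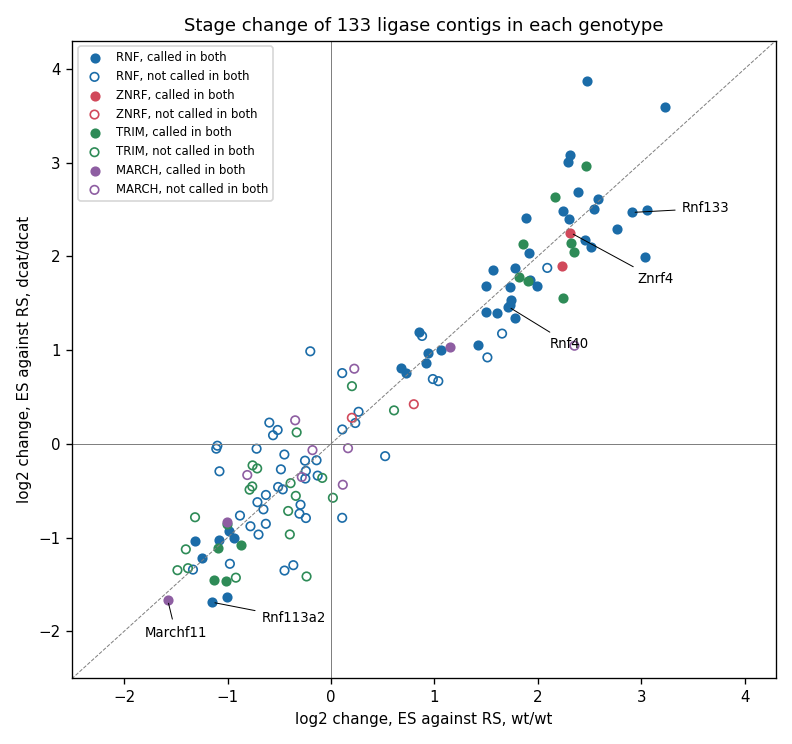
Each point is 1 of the 133 tested member contigs, with its ES to RS log2 change in wt/wt mice on the x axis and in dcat/dcat mice, from other libraries, on the y axis, coloured by family and filled where called in both genotypes. The 47 contigs called higher in both lie at the upper right, Rnf133, Znrf4 and Rnf40 among them, and the 14 called lower in both at the lower left, with Marchf11 and Rnf113a2 at the edge.

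By family, RNF contigs were higher in 39 of 86 cases and lower in 8 in wt/wt, with a median of 0.40, and 38 were higher and 9 lower in dcat/dcat, with a median of 0.68. On total counts these medians were -0.33 and 0.02, so that the sign in wt/wt flipped. TRIM contigs were evenly divided, 8 of 32 higher and 7 lower in each genotype, with medians of -0.39 and -0.47. MARCH contigs were 2 of 11 higher and 2 lower in each genotype, and ZNRF contigs 2 of 4 higher and 0 lower. Markers of other testis cells also moved with stage. The Leydig cell list, of which 7 of 12 genes were counted (not Star, Hsd3b1, Hsd3b6, Lhcgr or Hsd17b3), summed to 69 to 129 CPM in wt/wt RS, 73.4 to 105 in dcat/dcat RS, 486 to 929 in wt/wt ES and 289.8 to 1069 in dcat/dcat ES. For the Sertoli cell list, 6 of 14 genes were counted (not Sox9, Amh, Wt1, Gata4, Gata1, Rhox5, Fshr or Inhba), with 39.3 to 46.7 and 19.2 to 56.4 CPM in wt/wt and dcat/dcat RS against 240.1 to 384 and 267 to 462 in ES. The macrophage list had 2 of 9 genes counted, with 9.14 to 14.8 and 8.55 to 14.4 CPM in RS against 84.7 to 114 and 87.4 to 129.8 in ES. The spermatocyte list, with 11 of 16 genes counted, had a lower sum in ES. The sum was 1037 to 1236 CPM in wt/wt RS and 569 to 703 in wt/wt ES. For dcat/dcat it was 951 to 1233 in RS and 507 to 601 in ES. Of its 21 contigs, 6 were lower, 1 higher and 14 not called for wt/wt. The dcat/dcat calls were 5 lower, 1 higher and 15 not called. The Leydig list had 7 of 8 contigs higher in each genotype, and the Sertoli list 6 of 7. The leading gene was Ccnb1 for spermatocytes, Insl3 for Leydig cells and Aard for Sertoli cells. None of the counted marker genes was at 0 in a group, and the part of these cells in the members' changes was not tested.

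Znrf4, Rnf133, Rnf148 and Rnf167 encode membrane ligases that carry a protease-associated domain in front of a transmembrane segment and the RING. ZNRF4 is a ligase of the endoplasmic reticulum, and Rnf133 and Rnf148 are testis genes next to each other. Of the 5 contigs of these genes, 4 were higher in ES in both genotypes, and Rnf167, which is expressed widely, was the other. Znrf4 was the most abundant member. Its single contig, with 1 exon at chr17:56511248-56512431 (- strand) of GRCm38, had 379, 504 and 508 CPM in wt/wt RS, 392, 456 and 453 in dcat/dcat RS, 2637, 2219.9 and 2059 in wt/wt ES and 2386, 1907 and 1909.6 in dcat/dcat ES. All 6 ES libraries lay above all 6 RS libraries, and the change was 2.31 ± 0.17 (SE, 4.97-fold higher, q = 1.5e-06) in wt/wt and 2.25 ± 0.17 (SE, 4.76-fold higher, q = 3.1e-06) in dcat/dcat.

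The promoters of Znrf4, Rnf133 and Rnf148 are printed because the 4 contigs that rose among the 5 of these membrane ligases were theirs. They run from 250 bases before to 50 bases after the start of transcription, 5′ to 3′ on the gene's strand, from RefSeq on GRCm38.p6, at chr17:56512434-56512733, chr6:23650256-23650555 and chr6:23655087-23655386, all on the minus strand. Capitals mark TGACGTCA, the full cAMP response element bound by CREB family factors such as CREM, in Znrf4, and in the other promoters the longest run of letters that Rnf133 and Rnf148 share, which was searched for after the promoters were chosen.
Znrf4: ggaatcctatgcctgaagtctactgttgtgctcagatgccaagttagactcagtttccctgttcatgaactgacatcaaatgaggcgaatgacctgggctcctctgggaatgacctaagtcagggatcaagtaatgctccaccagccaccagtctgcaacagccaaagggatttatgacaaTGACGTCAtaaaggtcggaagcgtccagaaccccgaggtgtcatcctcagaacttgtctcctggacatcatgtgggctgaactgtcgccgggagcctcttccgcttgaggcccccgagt
Rnf133: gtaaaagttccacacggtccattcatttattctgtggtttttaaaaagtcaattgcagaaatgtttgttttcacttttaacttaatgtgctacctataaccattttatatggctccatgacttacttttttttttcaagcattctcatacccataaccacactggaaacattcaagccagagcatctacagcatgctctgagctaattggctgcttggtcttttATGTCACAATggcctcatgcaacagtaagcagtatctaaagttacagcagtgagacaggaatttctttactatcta
Rnf148: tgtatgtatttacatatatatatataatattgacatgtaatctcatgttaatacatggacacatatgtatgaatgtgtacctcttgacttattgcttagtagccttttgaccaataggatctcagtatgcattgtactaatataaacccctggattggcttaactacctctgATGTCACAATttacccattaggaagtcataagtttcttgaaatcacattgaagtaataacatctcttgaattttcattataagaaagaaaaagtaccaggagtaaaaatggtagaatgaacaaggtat
The element begins 69 bases before the RefSeq start of Znrf4, which lies 52 bases upstream of the start of the counted contig. The shared run ATGTCACAAT begins 26 bases before the RefSeq start of Rnf133 and 78 before that of Rnf148. The Rnf133 start is that of the 2-exon contig and lies 99 bases upstream of the start of the main contig, and the Rnf148 start is that of its contig. Of 27025 genes with a promoter of this length, 51 (0.189%) held the run in a promoter on either strand. Promoters were found for 57 of the 74 member genes. TGACGTCA was in 3 of the 57 genes (5.26%), Rnf7, Trim52 and Znrf4, and in 2.03% of all genes. Its core TGACG, which lies inside it, was in 19 of 57 (33.3%) and in 23.0% of all, and TATAAA was in 10 of 57 (17.5%) and in 15.7% of all, both strands counted. A match describes the letters of this window and no more.

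Rnf133 (chr6:23648874-23650206 (- strand), 1 exon) had 79.8, 96.5 and 128 CPM in wt/wt RS, 108, 113 and 147 in dcat/dcat RS, 898, 768 and 629 in wt/wt ES and 874, 584 and 588 in dcat/dcat ES in its main contig. Its ES libraries were all above its RS libraries, and the change was 2.91 ± 0.24 (SE, 7.50-fold higher, q = 1.7e-06) in wt/wt and 2.47 ± 0.24 (SE, 5.53-fold higher, q = 3.8e-06) in dcat/dcat. The other contig, with 2 exons, also rose, by 3.23 and 3.59, and reads of the shared sequence may go to either. Rnf148 (chr6:23653898-23655136 (- strand), 1 exon) was less abundant, with 18.3, 25 and 62.1 CPM in wt/wt RS, 26.7, 40.6 and 47.8 in dcat/dcat RS, 144, 143 and 124 in wt/wt ES and 185, 129.8 and 159 in dcat/dcat ES. Its groups did not overlap within either genotype, and the change was 1.92 ± 0.37 (SE, 3.77-fold higher, q = 8.1e-04) in wt/wt and 2.03 ± 0.37 (SE, 4.09-fold higher, q = 5.3e-04) in dcat/dcat. Rnf167 was called lower in dcat/dcat alone. It had 73.9, 92.9 and 52 CPM in wt/wt RS against 44.4, 38 and 53 in wt/wt ES, and 85.5, 57.7 and 56 in dcat/dcat RS against 39.4, 42.4 and 21.9 in dcat/dcat ES, with overlapping groups in wt/wt, and the change was -0.70 ± 0.31 (SE, q = 0.085) in wt/wt and -0.97 ± 0.32 (SE, q = 0.025) in dcat/dcat. The dcat/dcat call was lost without RS replicate 1 or ES replicate 3.

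Ligases of chromatin and DNA repair moved both ways, with 9 of 18 contigs higher and 3 lower in wt/wt, and 8 higher and 3 lower in dcat/dcat. Every rise belonged to Rnf138, Rnf4 or Rnf40. RNF138 acts in the resection of DNA breaks, and all 5 of its contigs were higher in both genotypes, by 0.85 to 2.46 in wt/wt. The smallest of these changes, in ENSMUST00000234536, was 0.85 ± 0.32 (SE, q = 0.046) in wt/wt and 1.2 ± 0.32 (SE, q = 0.0075) in dcat/dcat, with overlapping wt/wt groups. Its wt/wt call was lost without RS replicate 1, 2 or 3 or ES replicate 2 or 3, and on total counts, at 0.15 and 0.54, neither genotype was called. A further contig, ENSMUST00000234545, lost its wt/wt call on total counts and without ES replicate 2 or 3. The most abundant had 194, 185 and 256 CPM in wt/wt RS, 215, 240.0 and 267 in dcat/dcat RS, 1477, 1101 and 915 in wt/wt ES and 1477, 954 and 832 in dcat/dcat ES. No ES library fell within the RS range, and the change was 2.46 ± 0.24 (SE, 5.49-fold higher, q = 3.0e-06) in wt/wt and 2.17 ± 0.24 (SE, 4.51-fold higher, q = 9.5e-06) in dcat/dcat. Rnf138rt1, an X-linked copy of Rnf138 with 1 exon, had 6.65, 8.34 and 20.1 CPM in wt/wt RS and 46.5, 47.6 and 14.1 in wt/wt ES, which overlap, with a change of 1.61 ± 0.50 (SE, q = 0.019) in wt/wt and 1.39 ± 0.53 (SE, q = 0.047) in dcat/dcat. Its wt/wt call was lost without replicate 1 or 2 of RS or of ES, and its dcat/dcat call without RS replicate 1 or 3 or any 1 ES library, and in DESeq2. On total counts neither call held. Because the copy resembles its parent, its reads are uncertain.

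RNF40 forms with RNF20 the ligase that puts ubiquitin on histone H2B. The main Rnf40 contig had 93.9, 85.8 and 95.2 CPM in wt/wt RS, 82.3, 106 and 109 in dcat/dcat RS, 283, 337 and 282 in wt/wt ES and 306, 275 and 241 in dcat/dcat ES. ES exceeded RS in all libraries, and the change was 1.71 ± 0.18 (SE, 3.28-fold higher, q = 5.6e-06) in wt/wt and 1.46 ± 0.18 (SE, 2.76-fold higher, q = 2.6e-05) in dcat/dcat. The second Rnf40 contig, ENSMUST00000206914, did not pass, at -0.65 ± 0.40 (SE, q = 0.21) in wt/wt and -0.70 ± 0.37 (SE, q = 0.14) in dcat/dcat. RNF4 targets proteins that carry SUMO, and its main contig had 86.4, 84.6 and 115 CPM in wt/wt RS against 313, 264 and 237 in wt/wt ES, and 82.3, 97 and 87.3 in dcat/dcat RS against 311, 202 and 192 in dcat/dcat ES. These groups did not overlap either, and the change was 1.50 ± 0.22 (SE, q = 9.7e-05) in wt/wt and 1.40 ± 0.22 (SE, q = 1.9e-04) in dcat/dcat.

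Trim28, the corepressor recruited by KRAB zinc finger proteins, had 302, 239.5 and 213 CPM in wt/wt RS, 259, 261 and 241 in dcat/dcat RS, 154, 118 and 141 in wt/wt ES and 139, 89.9 and 130.0 in dcat/dcat ES. Each ES library was below each RS library of its genotype, and the change was -0.87 ± 0.21 (SE, 1.83-fold lower, q = 0.0038) in wt/wt and -1.08 ± 0.21 (SE, 2.11-fold lower, q = 8.2e-04) in dcat/dcat. Rnf113a2, a copy of a splicing-linked RING gene with 1 exon, had 78.9, 77.5 and 74.5 CPM in wt/wt RS against 40.1, 28.5 and 35.3 in wt/wt ES, and 90.8, 76.1 and 50.3 in dcat/dcat RS against 32.5, 22.5 and 13.5 in dcat/dcat ES, with no overlap, and changed by -1.15 ± 0.31 (SE, q = 0.0078) in wt/wt and -1.69 ± 0.32 (SE, q = 8.2e-04) in dcat/dcat. Its wt/wt call was lost without ES replicate 2. Among relatives of Trim28 in the TIF1 family, 1 of 2 Trim24 contigs was lower in wt/wt, at -0.76 ± 0.23 (SE, q = 0.018), but not in dcat/dcat, at -0.23 ± 0.23 (SE, q = 0.43). The wt/wt call was lost without RS replicate 2 or ES replicate 1 or 2. For Trim33, 1 of 3 contigs was lower in dcat/dcat, at -1.43 ± 0.38 (SE, q = 0.0072), and missed the threshold in wt/wt, at -0.92 ± 0.36 (SE, q = 0.056). Rnf2, the Polycomb ligase of histone H2A, was not called, at -0.30 ± 0.44 (SE, q = 0.61) in wt/wt and -0.74 ± 0.45 (SE, q = 0.20) in dcat/dcat.

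Membrane and endoplasmic reticulum ligases also went both ways, with 4 of 14 contigs higher and 3 lower in each genotype. Marchf11, a spermatid ligase of vesicles, had the largest fall of the members in wt/wt. Its main contig had 409.6, 452 and 429 CPM in wt/wt RS, 354, 498 and 454 in dcat/dcat RS, 177, 126 and 127 in wt/wt ES and 114, 137 and 159 in dcat/dcat ES. The RS libraries lay from 354 to 498 CPM and the ES libraries from 114 to 177, and the change was -1.58 ± 0.20 (SE, 2.99-fold lower, q = 2.5e-05) in wt/wt and -1.67 ± 0.20 (SE, 3.17-fold lower, q = 1.9e-05) in dcat/dcat. A second contig fell by 1.01 in wt/wt and by 0.83 in dcat/dcat, and the remaining contig was not called. The call of the second was lost in wt/wt without ES replicate 1 or 3, and in dcat/dcat without RS replicate 2 or 3 or ES replicate 1 or 3 and in a fit of the dcat/dcat libraries alone. Rnft1 also fell. It had 102, 129 and 116 CPM in wt/wt RS against 35.9, 51.4 and 53 in wt/wt ES, and 124, 125 and 94.8 in dcat/dcat RS against 69.6, 64.9 and 35.5 in dcat/dcat ES, without overlap, and changed by -1.31 ± 0.27 (SE, q = 0.0014) in wt/wt and -1.03 ± 0.26 (SE, q = 0.0058) in dcat/dcat. Rnf139, a sterol-sensing ligase of the endoplasmic reticulum, rose in both of its contigs. The main contig had 184, 209.7 and 204 CPM in wt/wt RS, 198, 216 and 213 in dcat/dcat RS, 401, 464 and 378 in wt/wt ES and 427, 414 and 410.3 in dcat/dcat ES. The groups did not overlap, and the change was 1.06 ± 0.15 (SE, q = 6.7e-05) in wt/wt and 1.0 ± 0.15 (SE, q = 1.2e-04) in dcat/dcat, or 0.35 and 0.32 on total counts, where the dcat/dcat call was lost. The second contig was called in neither genotype on total counts, with -0.03 in wt/wt. Rnf170, which acts on inositol trisphosphate receptors, had low counts and rose by 2.30 ± 0.47 (SE, q = 0.0014) in wt/wt and 2.39 ± 0.50 (SE, q = 0.0016) in dcat/dcat.

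Marchf10, which is found on microtubules of elongating spermatids, rose in 1 of its 3 contigs. That contig had 266, 135 and 176 CPM in wt/wt RS, 256, 119 and 152 in dcat/dcat RS, 594, 274 and 413 in wt/wt ES and 503, 242 and 333 in dcat/dcat ES, with the highest value of each group in replicate 1. The groups overlapped in dcat/dcat, and the change was 1.15 ± 0.35 (SE, q = 0.018) in wt/wt and 1.03 ± 0.36 (SE, q = 0.032) in dcat/dcat. Its call was lost without any of 3 libraries in wt/wt (RS replicates 2 and 3, ES replicate 1) and of 4 in dcat/dcat (RS replicates 2 and 3, ES replicates 1 and 3). On total counts it was 0.42 and 0.35, and neither call held. Marchf5, a ligase of the mitochondrial outer membrane, had 5.82, 3.57 and 7.69 CPM in wt/wt RS against 35.9, 34.2 and 21.2 in wt/wt ES, and 11.8, 3.93 and 13.2 in dcat/dcat RS against 11.6, 25 and 25.3 in dcat/dcat ES. It was called in wt/wt, at 2.35 ± 0.46 (SE, q = 8.7e-04), but not in dcat/dcat, where groups overlapped, at 1.05 ± 0.46 (SE, q = 0.08). Marchf7, also called axotrophin, was not called, at -0.81 ± 0.36 (SE, q = 0.085) in wt/wt and -0.33 ± 0.33 (SE, q = 0.44) in dcat/dcat.

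**Figure D2:**
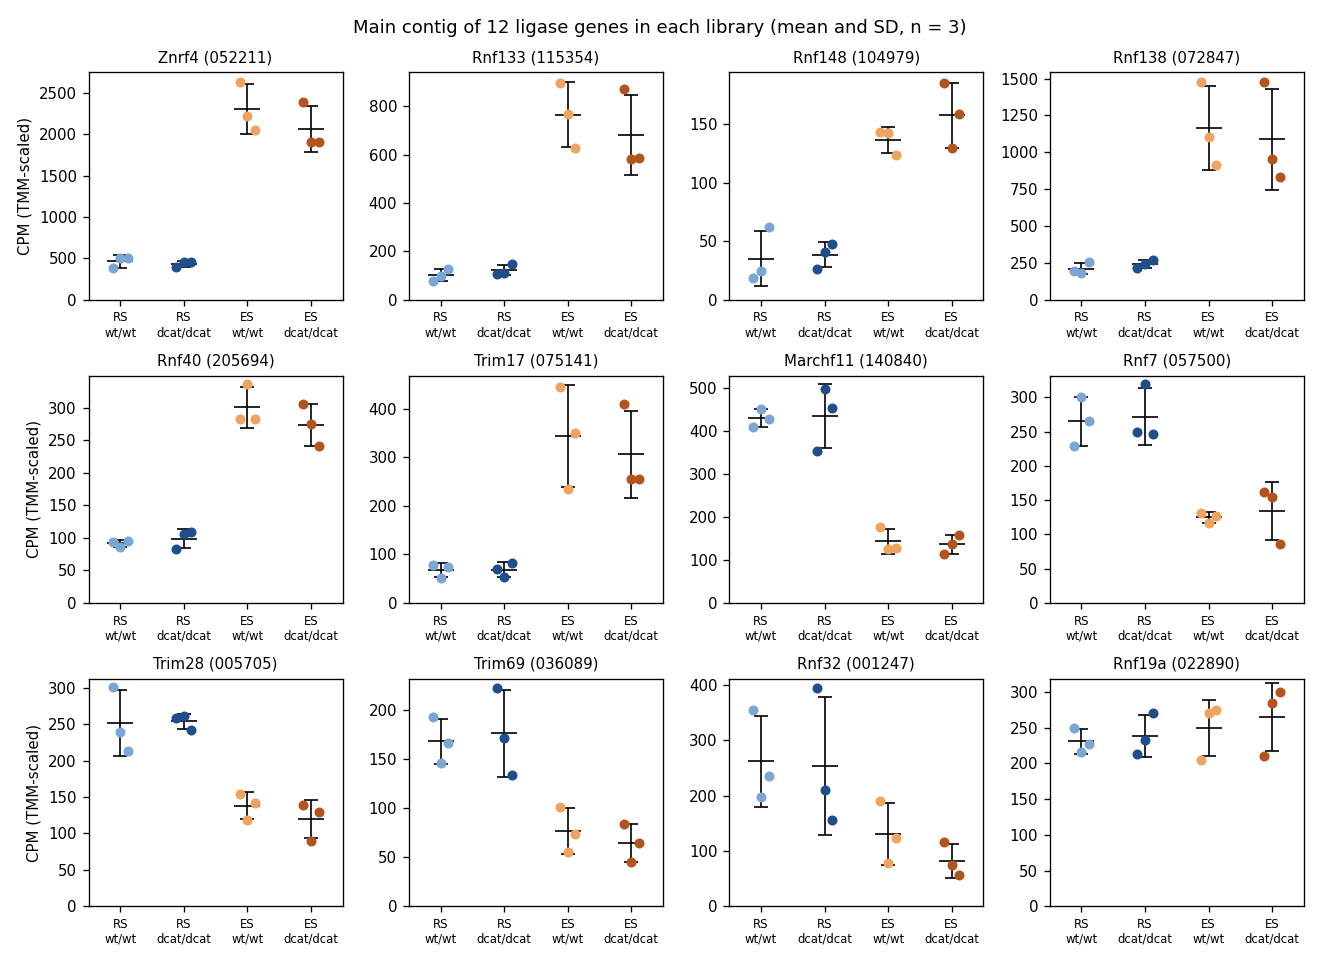
TMM-scaled CPM of the main contig of 12 member genes (the last digits of its identifier in parentheses) in each library, 1 panel per gene with its own linear axis from 0, with a point per library and the mean and SD of the 3 libraries of each group. Znrf4, Rnf133, Rnf148, Rnf138, Rnf40 and Trim17 stand higher in ES than in RS, Marchf11, Rnf7, Trim28, Trim69 and Rnf32 stand lower, and the Rnf19a groups overlap.

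RNF7 is a RING subunit of cullin ligases. Its only contig had 228, 300.3 and 266 CPM in wt/wt RS, 249, 319.9 and 246 in dcat/dcat RS, 131, 116 and 127 in wt/wt ES and 162, 155 and 86.1 in dcat/dcat ES. All ES libraries lay below all RS libraries, and the change was -1.09 ± 0.23 (SE, 2.12-fold lower, q = 0.0018) in wt/wt and -1.03 ± 0.23 (SE, 2.04-fold lower, q = 0.0025) in dcat/dcat. Rnf32, a gene of the sperm-forming cells, fell in 2 contigs. The larger, ENSMUST00000001247, had 355, 198 and 235 CPM in wt/wt RS against 190.2, 78 and 124 in wt/wt ES, and 394, 211 and 157 in dcat/dcat RS against 116, 74.9 and 55.7 in dcat/dcat ES, and changed by -1.01 ± 0.39 (SE, q = 0.049) in wt/wt and -1.64 ± 0.40 (SE, q = 0.0045) in dcat/dcat. Its wt/wt call was lost in DESeq2, with DESeq2's size factors in edgeR, with no filter on low counts, and without RS replicate 1 or 3 or ES replicate 2 or 3. The other, ENSMUST00000160246, fell by 1.25 ± 0.28 (SE, q = 0.0029) in wt/wt and 1.22 ± 0.28 (SE, q = 0.0031) in dcat/dcat. Rnf34 and Rnf187 fell as well: Rnf34 by 0.94 and 1.0 in wt/wt and dcat/dcat, and Rnf187 by 0.99 and 0.93. Without ES replicate 1 both lost their call in wt/wt.

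Rnf151, a testis ligase linked to the acrosome, was abundant in both stages and rose modestly. Its main contig had 321, 359 and 408 CPM in wt/wt RS, 358, 328 and 341 in dcat/dcat RS, 621, 622 and 558 in wt/wt ES and 679, 529 and 527 in dcat/dcat ES. ES lay above RS throughout, and the change was 0.73 ± 0.16 (SE, q = 0.0019) in wt/wt and 0.76 ± 0.16 (SE, q = 0.0015) in dcat/dcat, though on total counts neither call held. Rnf141, also a testis gene, rose by 0.94 ± 0.22 (SE, q = 0.004) in wt/wt and 0.97 ± 0.23 (SE, q = 0.0033) in dcat/dcat, and was not called on total counts either. Rnf17, a Tudor protein of the piRNA pathway, was not called, at -0.48 ± 0.40 (SE, q = 0.36) in wt/wt and -0.27 ± 0.37 (SE, q = 0.59) in dcat/dcat. Among ligases with 2 RING domains around a linking domain (the RBR type), only Rnf144a and 1 of 4 Rnf19b contigs were higher, 2 of 11 contigs in each genotype, and none was lower. The wt/wt call of that Rnf19b contig, at 2.48, was lost on total counts and without any 1 RS library or ES replicate 2. Without ES replicate 2 its change was 0.89. Summed over its contigs, Rnf19b was not called, at -0.18 in wt/wt and -0.14 in dcat/dcat. Rnf19a, or dorfin, had 250.1, 216 and 228 CPM in wt/wt RS, 213, 233 and 270.3 in dcat/dcat RS, 205, 270.1 and 275 in wt/wt ES and 211, 285 and 301 in dcat/dcat ES in its main contig. Its groups overlapped, and the change was 0.11 ± 0.19 (SE, q = 0.67) in wt/wt and 0.15 ± 0.19 (SE, q = 0.54) in dcat/dcat. Rnf14, a coregulator of the androgen receptor, was not called either, at -0.56 ± 0.51 (SE, q = 0.40) in wt/wt and 0.09 ± 0.44 (SE, q = 0.89) in dcat/dcat.

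Some RNF genes of low level rose in all of their contigs, Rnf44 and Rnf24 among them. The 5 Rnf44 contigs changed by 2.52 to 3.05 in wt/wt and by 1.99 to 2.61 in dcat/dcat. For ENSMUST00000125871 the values were 4.15, 4.77 and 8.28 CPM in wt/wt RS, 8.55, 9.18 and 11.5 in dcat/dcat RS, 54.9, 45.7 and 53 in wt/wt ES and 46.4, 49.9 and 70.9 in dcat/dcat ES. The change was 3.05 ± 0.34 (SE, 8.31-fold higher, q = 7.5e-06) in wt/wt and 2.49 ± 0.32 (SE, 5.63-fold higher, q = 3.1e-05) in dcat/dcat. This contig passed the count filter only through its ES libraries, and its RS libraries, at 4.15 to 11.5 CPM, held few counts. That RS and ES do not overlap is therefore no separate support, and the fold change is uncertain. Rnf24 rose in its 3 contigs, by 1.78 to 2.55 in wt/wt. Its smallest change, in ENSMUST00000165420, was not called in either genotype on total counts, or without RS replicate 1 or ES replicate 2 or 3 of the same genotype, and ENSMUST00000059372 was not called without ES replicate 1. Contigs of a gene share sequence, so they are not separate evidence. In the ZNRF group, the main contig of Znrf1, a ligase of vesicle membranes, had 37.4, 41.7 and 54.4 CPM in wt/wt RS, 40.6, 53.8 and 42 in dcat/dcat RS, 251, 183 and 201 in wt/wt ES and 229.5, 157 and 123 in dcat/dcat ES. All ES libraries were higher, and the change was 2.24 ± 0.26 (SE, 4.71-fold higher, q = 1.2e-05) in wt/wt and 1.90 ± 0.26 (SE, 3.73-fold higher, q = 5.7e-05) in dcat/dcat.

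**Figure D3:**
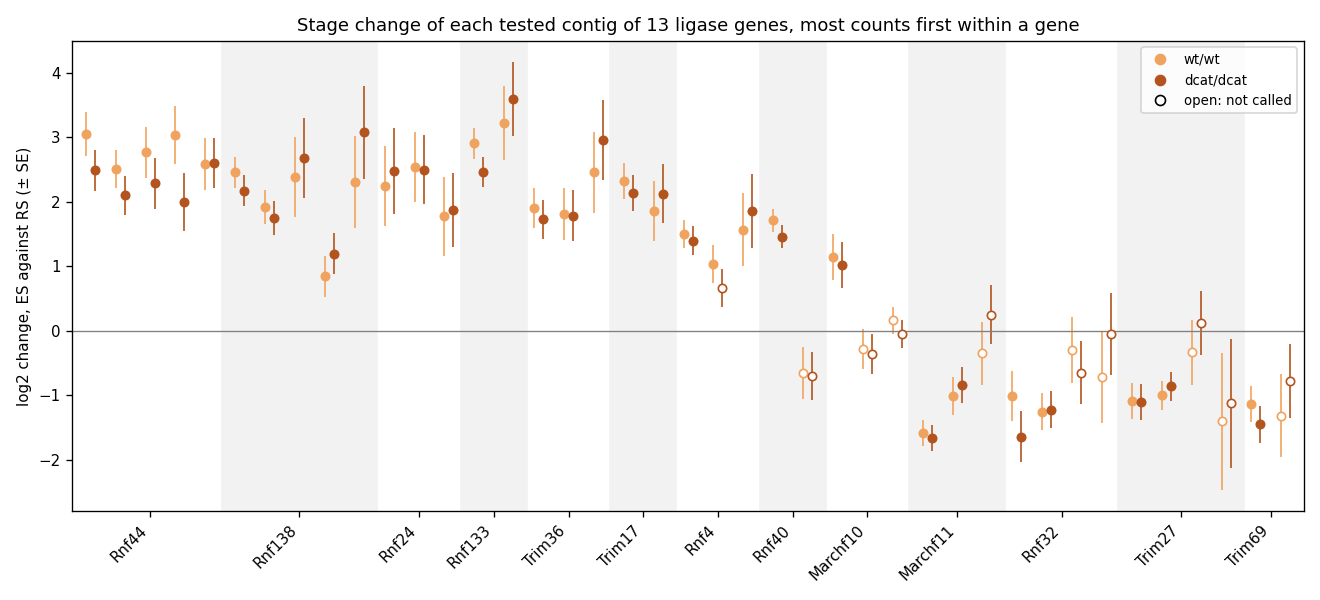
ES to RS log2 change, with its SE as a bar, of each tested contig of 13 member genes with several contigs, in wt/wt (light) and dcat/dcat (dark), filled where called and open where not, with the contig of most counts first within a gene. All contigs of Rnf44, Rnf138, Rnf24, Rnf133, Trim36 and Trim17 are filled and above 0, whereas Rnf40 and Marchf10 have 1 contig above 0 that was called and others near or under 0 that were not.

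The TRIM genes with a contig that rose in both genotypes were Trim17, Trim36, Trim42, Trim45 and Trim80. Trim17, a testis RING finger protein, had 78.1, 52.4 and 73.9 CPM in wt/wt RS, 69.5, 53.8 and 83.2 in dcat/dcat RS, 446, 236 and 349.6 in wt/wt ES and 410.4, 255 and 255 in dcat/dcat ES in its main contig. ES exceeded RS in every library, and the change was 2.32 ± 0.28 (SE, 4.99-fold higher, q = 1.7e-05) in wt/wt and 2.14 ± 0.28 (SE, 4.41-fold higher, q = 3.9e-05) in dcat/dcat. Trim36, or haprin, which is tied to the acrosome reaction, rose in all 3 contigs. The main contig had 151, 60.8 and 119 CPM in wt/wt RS against 537, 373 and 339 in wt/wt ES, and 171, 90.5 and 109.6 in dcat/dcat RS against 452, 392 and 392 in dcat/dcat ES, and changed by 1.91 ± 0.31 (SE, q = 2.0e-04) in wt/wt and 1.73 ± 0.30 (SE, q = 4.2e-04) in dcat/dcat. Trim80 had 35.7, 32.2 and 46.1 CPM in wt/wt RS, 42.7, 44.6 and 52.7 in dcat/dcat RS, 251, 141 and 198 in wt/wt ES and 220.3, 162 and 199 in dcat/dcat ES. It too showed no overlap, with 2.35 ± 0.25 (SE, q = 5.4e-06) in wt/wt and 2.05 ± 0.25 (SE, q = 1.9e-05) in dcat/dcat. Trim42, with 107 counts in all, changed by 2.25 ± 0.56 (SE, q = 0.0051) in wt/wt and 1.56 ± 0.55 (SE, q = 0.033) in dcat/dcat, and its dcat/dcat call was lost without RS replicate 1 or 2 or ES replicate 2 or 3, on total counts and in a fit of the dcat/dcat libraries alone.

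The TRIM genes that fell included Trim69, a testis ligase, with 193, 147 and 166 CPM in wt/wt RS, 223, 172 and 134 in dcat/dcat RS, 101, 55.2 and 74.2 in wt/wt ES and 83.5, 44.9 and 64.2 in dcat/dcat ES. Groups were apart within each genotype, and the change was -1.13 ± 0.28 (SE, 2.19-fold lower, q = 0.0047) in wt/wt and -1.45 ± 0.28 (SE, 2.73-fold lower, q = 8.7e-04) in dcat/dcat, with the wt/wt call lost without ES replicate 2. Trim27, the RET finger protein, fell in 2 of its 4 contigs, the larger by 1.09 ± 0.28 (SE, q = 0.0057) in wt/wt and 1.11 ± 0.28 (SE, q = 0.0055) in dcat/dcat. Its wt/wt call was lost without ES replicate 2 or 3. The Trim13 contig ENSMUST00000165015, from a ligase of the endoplasmic reticulum, changed by -1.01 ± 0.34 (SE, q = 0.028) in wt/wt and -1.46 ± 0.35 (SE, q = 0.0036) in dcat/dcat, and its wt/wt call was lost without RS replicate 2 or 3 or ES replicate 2 or 3. Trim37, which acts at peroxisomes and centrioles, was lower in wt/wt, at -0.79 ± 0.25 (SE, q = 0.021), but did not pass in dcat/dcat, at -0.49 ± 0.24 (SE, q = 0.12). Its wt/wt call was lost without replicate 1 of RS or of ES. Over replicates 2 and 3 alone, the wt/wt calls of Rnf34, Rnf166, Trim24 and Trim37 and the dcat/dcat calls of Rnf138rt1 and Triml1 were lost. Calls in 1 genotype are not shown to differ between genotypes, as the interaction test below gives. Rnf24, Rnf139, Rnf144a, Rnf167, Rnf170, Rnf187, Trim24, Trim33, Trim45 and the second contigs of Rnf133, Rnf40 and Marchf11 are described outside the rule for named genes and were chosen after their values were seen.

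Within a gene, the share of reads on the main contig does not depend on library scaling. It was compared between stages for the 24 member genes with 20 counts or more in every library, by an exact two-sided permutation test within genotype over 400 arrangements, with 0.005 as the smallest p. The share changed in 2 of the 24, Marchf10 and Rnf40, where it changed in 11.9% of the 1333 genes so tested. For Marchf10, ENSMUST00000100332 took 52.3, 40.8 and 51.7% in wt/wt RS, 51.4, 47.9 and 41.5% in dcat/dcat RS, 76.2, 59.5 and 66.9% in wt/wt ES and 72.8, 58.4 and 68.9% in dcat/dcat ES. ES shares lay above all RS shares, by 19.5 percentage points on average (exact permutation p = 0.005, q = 0.042), and by 17.9 over replicates 2 and 3. For Rnf40, ENSMUST00000205694 took 86.3, 82.8 and 86.1% in wt/wt RS, 81.1, 86.2 and 80.0% in dcat/dcat RS, 95, 97.8 and 97.6% in wt/wt ES and 96.4, 96.5 and 93.5% in dcat/dcat ES. The difference was 12.4 points (exact permutation p = 0.005, q = 0.042), again without overlap, and 12.6 over replicates 2 and 3. Marchf11, with 13.5 points less on its main contig in ES (exact permutation p = 0.015, q = 0.083), and Znrf1, with 7.41 points more (exact permutation p = 0.01, q = 0.065), did not pass. Without a library of RS, or without wt/wt ES replicate 2, 0 member genes and 0 of all genes passed, with 0.01 as the smallest p that the 200 arrangements then allow. edgeR's test of contig use called 5 of the 24: Marchf10, Marchf11, Rnf19b, Rnf40 and Znrf1. Over all 1333 genes it called 195 (14.6%).

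**Figure D4:**
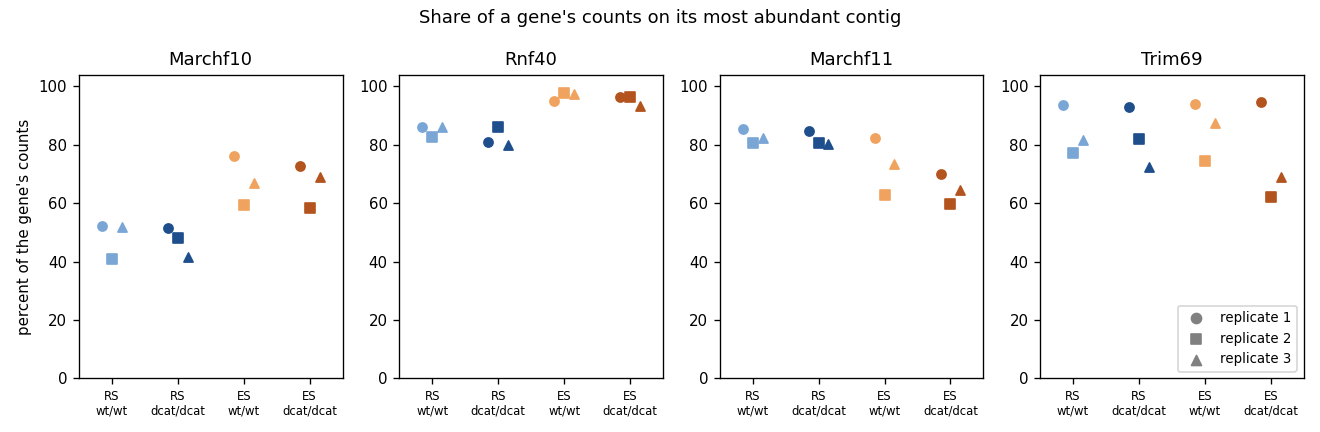
Percent of a gene's counts on its most abundant contig in each of the 12 libraries, for Marchf10, Rnf40, Marchf11 and Trim69, with the replicate number as the marker shape; Trim69 is shown as a gene whose share was highest in replicate 1 in all 4 groups. The Marchf10 share lies at 40.8 to 52.3% in RS and 58.4 to 76.2% in ES, and the Rnf40 share at 80.0 to 86.3% in RS and 93.5 to 97.8% in ES.

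As a share of all counts in a library, the members took between 1.01 and 1.13%. They had 1.07, 1.01 and 1.03% in wt/wt RS, 1.05, 1.03 and 1.07% in dcat/dcat RS, 1.13, 1.03 and 1.10% in wt/wt ES and 1.11, 1.03 and 1.10% in dcat/dcat ES. RS and ES ranges overlapped. By family, the shares are given here as values with no test. ZNRF contigs, mostly Znrf4, took 0.0759% ± 0.00837 (SD, n = 3) in wt/wt RS and 0.203% ± 0.0172 in wt/wt ES, with 0.0721% ± 0.00691 and 0.186% ± 0.0169 in dcat/dcat. The MARCH share in RS and then ES was 0.130% ± 0.0123 and 0.0729% ± 0.0128 for wt/wt, against 0.129% ± 0.00353 and 0.0698% ± 0.00704 for dcat/dcat. The TRIM share in RS and then ES was 0.233% ± 0.0161 and 0.182% ± 0.00880 for wt/wt, against 0.235% ± 0.00241 and 0.191% ± 0.0156 for dcat/dcat. The RNF share in RS and then ES was 0.600% ± 0.0160 and 0.626% ± 0.0171 for wt/wt, against 0.611% ± 0.0149 and 0.632% ± 0.0260 for dcat/dcat. The stage difference over all members was 0.0383 percentage points, and without Znrf4 it was -0.0758, so that 1 contig decides its sign.

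**Figure D5:**
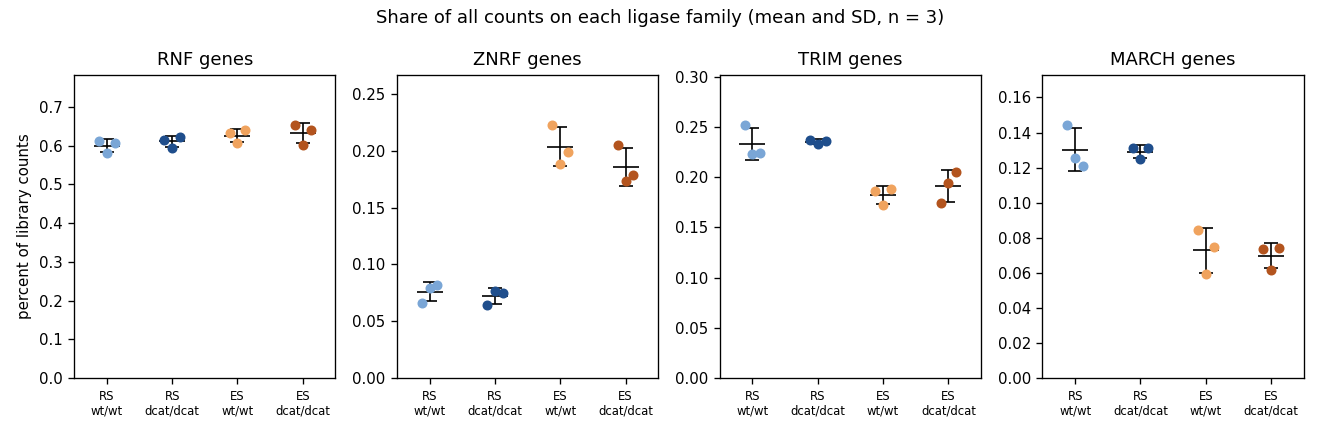
Percent of all counts in a library on RNF, ZNRF, TRIM and MARCH contigs, 1 panel each with its own axis from 0, with 1 point per library and the mean and SD of each group. ZNRF contigs took a larger share in all ES libraries than in any RS library, MARCH and TRIM contigs a smaller one, and the RNF ranges overlapped.

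Loss of TENT5C catalysis gave no called member in either stage. In RS, edgeR's quasi-likelihood test of dcat/dcat against wt/wt called 0 of 133 members and 0 of 11831 contigs (0.0%), 0 members and 98 contigs had an unadjusted p under 0.05, and DESeq2 made 0 calls. In ES, 0 members and 0 contigs (0.0%) were called by edgeR, 2 members and 356 contigs had an unadjusted p under 0.05, and DESeq2 called 0 members and 1 contig. No member had a q that rounded below 1.0 in either stage. The 98 and 356 contigs with a p under 0.05 were fewer than evenly spread p-values would give over 11831 contigs. With the replicate number as a block they were 326 in RS and 734 in ES. The main fit can thus miss differences, and the lack of calls does not show that genotype had no effect. For the 50 members with 500 counts or more, the genotype difference ran from -0.25 to 0.41 on the log2 scale in RS, with a median SE of 0.26, and from -0.68 to 0.57 in ES, with a median SE of 0.28. In RS, members with some of the smallest unadjusted p-values were Rnf44 ENSMUST00000125871, at 0.70 ± 0.37 (SE, unadjusted p = 0.084), and Marchf5, at 0.73 ± 0.47 (SE, unadjusted p = 0.14).

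In ES, the member with the smallest p was Rnf166, a ligase with 6 exons and 347 counts in all. It had 50.7, 32.2 and 36.7 CPM in wt/wt RS, 48.1, 38 and 36.3 in dcat/dcat RS, 19, 11.4 and 28.2 in wt/wt ES and 44.1, 35 and 38.8 in dcat/dcat ES. The dcat/dcat ES libraries lay above those of wt/wt ES and within the range of RS, with a genotype difference of 1.08 ± 0.36 (SE, unadjusted p = 0.0087). Its stage change was -1.11 ± 0.34 (SE, q = 0.017) in wt/wt and -0.05 ± 0.30 (SE, q = 0.91) in dcat/dcat, and the wt/wt call was lost without RS replicate 1 or ES replicate 1 or 2. Triml1 had 23.3, 16.7 and 20.7 CPM in wt/wt RS, 27.8, 22.3 and 18.1 in dcat/dcat RS, 12.7, 19 and 21.2 in wt/wt ES and 4.64, 9.99 and 10.1 in dcat/dcat ES. It was lowest in dcat/dcat ES, with -1.03 ± 0.44 (SE, unadjusted p = 0.042). Its stage call in dcat/dcat, at -1.41 ± 0.39 (SE, q = 0.01), was lost without dcat/dcat ES replicate 1. Rnf146, which binds poly(ADP-ribose), had in ENSMUST00000160144 values of 18.3, 13.1 and 14.2 CPM in wt/wt RS, 12.8, 13.1 and 9.06 in dcat/dcat RS, 10.6, 15.2 and 14.1 in wt/wt ES and 18.5, 35 and 16.9 in dcat/dcat ES. The dcat/dcat ES libraries of this contig lay above those of wt/wt ES, with 0.78 ± 0.41 (SE, unadjusted p = 0.078). Summed over its contigs, Rnf146 differed between genotypes in ES by only 0.16 ± 0.22 (SE). The summed stage change was 1.05 ± 0.21 (SE, q = 4.3e-04) in wt/wt and 1.18 ± 0.21 (SE, q = 1.2e-04) in dcat/dcat.

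Whether the stage change itself differed between genotypes was tested as an interaction. By edgeR, 0 of 133 members and 0 of 11831 contigs (0.0%) passed, 3 members and 170 contigs had an unadjusted p under 0.05, and DESeq2 called 0. The 3 members were the same contigs that had the smallest p in ES. The 170 contigs were again fewer than evenly spread p-values would give. Rnf166 gave 1.06 ± 0.45 (SE, unadjusted p = 0.034), Triml1 -1.18 ± 0.54 (SE, unadjusted p = 0.044) and the Rnf146 contig 1.19 ± 0.54 (SE, unadjusted p = 0.045). Summed over its contigs, Rnf146 gave 0.13 ± 0.30 (SE). Neither contrast between genotypes nor the interaction called a member without any 1 library or over replicates 2 and 3 alone.

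The other enzymes of the pathway give a setting for these counts. Ubiquitin-activating and conjugating enzymes had 66 contigs tested, of which 22 were higher and 12 lower in wt/wt, then 21 and 13 in dcat/dcat, and medians were -0.09 and -0.01. Cullin ligase subunits and substrate receptors had 40, of which 11 were higher and 3 lower in wt/wt, with 14 and 5 in dcat/dcat, with medians of 0.36 and 0.49, which were -0.36 and -0.17 on total counts. Other RING, HECT and U-box ligases had 68, of which 12 were higher and 3 lower in wt/wt, with 11 and 6 in dcat/dcat, with medians of -0.20 and -0.22. When counts were summed over the contigs of a symbol, 28 of 72 member genes were higher and 15 lower in wt/wt, against 26.1% and 22.9% of 7706 genes and unnamed contigs, and 29 were higher and 18 lower in dcat/dcat, against 26.4% and 22.8%. In this form Marchf10 was higher in both genotypes, at 0.77 ± 0.23 (SE, q = 0.0086) in wt/wt and 0.63 ± 0.23 (SE, q = 0.029) in dcat/dcat. Marchf11 was lower in both, at -1.29 ± 0.20 (SE, q = 2.5e-05) and -1.21 ± 0.20 (SE, q = 4.5e-05). Marchf5 was called higher in both, at 2.46 ± 0.44 (SE, q = 9.6e-05) and 1.15 ± 0.44 (SE, q = 0.036).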

How the data were processed

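Per the labels and the study's methods, the authors aligned direct RNA reads to GENCODE genes of GRCm38 (mm10) with minimap2, whose version the sources give differently, and deposited raw counts per transcript contig for the 12 libraries. Their deposited DESeq2 tables also hold log2 fold changes and adjusted p-values, which were not used; only the gene symbols were taken from them. Each nanopore read is 1 molecule without PCR copies, and reads were split among contigs of a gene by alignment, so single contigs are less certain than genes. Contig structures were read from GENCODE vM21 on GRCm38.

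The main test was edgeR 4.0.16 (R 4.3.3) on these counts, with TMM scaling, contigs with at least 10 counts in 2 libraries of a group, quasi-likelihood fit over all 12 libraries with 4 group means, Benjamini-Hochberg q at 0.05. SEs were derived from the log2 change and the F statistic. DESeq2 1.42.0, other scalings and filters, a replicate block, gene sums and leaving out each library were alternatives, and replicates 2 and 3 alone was one chosen after seeing the data. The fit and the share test were tested on simulated data. Same-numbered libraries deviated together by r of 0.70, 0.38 and 0.47 between wt/wt and dcat/dcat RS and by 0.52, 0.25 and 0.29 between dcat/dcat RS and ES. The r was 0.40, 0.36 and -0.09 between wt/wt RS and ES, and 0.45, 0.31 and 0.03 between wt/wt and dcat/dcat ES. Groups sharing neither stage nor genotype gave 0.46, 0.26 and 0.19 (wt/wt RS with dcat/dcat ES) and 0.43, 0.33 and -0.05 (dcat/dcat RS with wt/wt ES). Thus the numbers tie libraries across all groups, apart from wt/wt ES replicate 3. RS and ES of a genotype came from the same mice, but the sources used here do not tie a number to a set of mice. Per the study, each sorting session held 1 mouse of each genotype. The edgeR p-values of the main fit measure the spread between pools of 3 mice, with no term for replicate number or session.

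Named contigs were, per stage comparison, the 10 with the smallest q in each direction among called contigs without overlap, the 3 with the smallest p per genotype comparison and interaction, the testis list, and genes called for the share; a gene named by this rule is not reported here. Members and lists were chosen with earlier results of these data known.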

Additional observations from a re-analysis of the deposited data

How the results depend on the processing

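The number of member contigs called between stages moved with the scaling, the filter, the unit and the libraries used, and no called contig described in the report changed direction, apart from the second Rnf139 contig in wt/wt, at -0.03 on total counts. On total counts, 34 were higher and 50 lower in wt/wt, and 32 were higher and 49 lower in dcat/dcat, with 51 of the 68 wt/wt calls and 50 of the 68 dcat/dcat calls kept. With 10 counts asked in every library, 53 members were left to test. For wt/wt, 41 were called, 23 higher and 18 lower, so that 56.1% of calls were higher, against 75.0% in the main fit. For dcat/dcat, 40 were called, 23 higher and 17 lower, or 57.5% against 73.5%. This filter left 3719 contigs of all kinds, of which 1241 were higher and 1347 lower for wt/wt. The same counts for dcat/dcat were 1245 and 1317. Counts summed by gene gave 43 calls in wt/wt (28 higher) and 29 higher in dcat/dcat. With the replicate block, 27 were lower in wt/wt and 28 in dcat/dcat, and all 68 calls of each genotype were kept. No member was called between genotypes or in the interaction. Over all 11831 contigs, edgeR with the block called 3 between genotypes in RS and 1 in ES. Contigs with an unadjusted edgeR p under 0.05 then numbered 326 in RS and 734 in ES, against 98 and 356 in the main fit. Leaving out 1 library at a time gave 52 to 63 calls in wt/wt (42 to 48 higher, 10 to 17 lower) and 58 to 65 in dcat/dcat (41 to 48 higher, 15 to 18 lower), and genotype and interaction calls of 0 throughout. Over replicates 2 and 3, 53 were higher and 17 lower in wt/wt, with 52 and 20 in dcat/dcat. Among all 11831 contigs, 2844 were then higher and 1929 lower for wt/wt. The same counts for dcat/dcat were 2938 and 2054. Member genes whose main contig changed its share numbered 0 to 3 without 1 library and 5 by edgeR's test of contig use. Over all genes, 0 to 11.8% were called without 1 library and 14.6% by edgeR's test. The stage difference in the members' share of counts was 0.0281 to 0.0528 percentage points without 1 library, 0.238 without the 10 most abundant contigs and -0.0758 without Znrf4. The causes of these shifts were not tested. Members with few counts, such as Rnf8, could not show a change at this depth.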
